A study of Homo sapiens with 6 samples.

Results

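The genes described here are 37 heat shock chaperones, cochaperones and heat shock transcription factors of the cytosol and mitochondria, out of 63140 genes listed for RNA-seq of BT-549 cells. They were picked by name from the HSP70 and HSP110, HSP90, J-domain, small heat shock, CCT and mitochondrial chaperone families, and each symbol matched 1 gene. Of these, 35 had enough reads to be tested. HSPB8 had no count in any culture, which allows at most 0.142 to 0.175 CPM (counts scaled to the TMM-adjusted library size; 3 counts of each total, covering counting error only). CRYAB had at most 4 counts in a culture, so neither of these small heat shock proteins was tested. SERPINH1 acts on collagen in the endoplasmic reticulum (ER) and so lies outside the compartments of the other genes, although it is a heat shock gene.

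Chaperones keep proteins from clumping and help them fold with energy from ATP. HSP70 proteins bind short stretches of unfolded protein, J-domain cochaperones bring them their clients, and nucleotide exchange factors such as HSP110 proteins and BAG3 let the clients go. HSP90 takes over clients that are nearly folded, many of them kinases and steroid receptors, and CCT is a ring-shaped chamber in which actin and tubulin fold. In stressed cells HSF1 binds arrays of short inverted DNA units, called heat shock elements, in front of many of these genes, and cancer cells are known for drawing heavily on HSP90, HSP70 and HSF1.

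BT-549 is a triple negative breast cancer line, used here unmodified (genotype WT) as a single line. In the study, 3 cultures were grown for 24 h in adipocyte-conditioned medium (ACM) and 3 in unconditioned medium (UCM), all as adherent cells in wells of plates. The ACM came from mouse OP9 cells differentiating in medium with insulin, oleate and albumin. The sample labels describe it as diluted and the supplementary methods as undiluted. What UCM contained is not given in the sources used here, so effects of the adipocyte secretions and of the base medium cannot be told apart. The replicates are wells of a plate as far as the labels say, so the p-values measure the spread between these wells only. Totals of expected counts were 18011677 to 21053214 in ACM and 17135270 to 20975771 in UCM. The labels call the cells epithelial, yet 7 of 8 epithelial markers were below 1 TPM (abundance scaled by transcript length) in all cultures, with a summed level of 7.40 to 9.74 TPM in ACM and 7.82 to 11.97 TPM in UCM. The mesenchymal markers VIM, FN1 and CDH2 summed to 3011 to 3470 TPM in ACM and 2886 to 2987 TPM in UCM. Of the receptors ESR1, PGR and ERBB2, ESR1 and PGR were listed at 0 TPM. The list summed to 26.45 to 28.54 TPM in ACM and 25.45 to 32.43 TPM in UCM, all of it from ERBB2. Of 7 adipocyte markers, 6 were below 1 TPM in all cultures and 3 of these were listed at 0, with summed levels of 3.77 to 6.41 TPM in ACM and 3.23 to 3.93 TPM in UCM.

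After 24 h, a few major chaperone transcripts were modestly less abundant in ACM than in UCM. Of the 35 tested genes, 5 fell at an adjusted p at or below 0.05 (edgeR's quasi-likelihood test, adjusted over 14451 genes), namely HSPA8, CCT2, HSPE1, DNAJB1 and HSP90AB1, and their transcripts were 17.7% to 22.9% lower. Among all genes tested, 2.21% were called lower and 3.35% higher. Among genes with a mean of at least 100 CPM (a limit set after the values were seen), where 29 of the chaperone genes lie, 4.37% were called lower, against 4 of those 29. With all cultures, a model of condition only and edgeR's default filter, no chaperone gene was called higher at the adjusted or the unadjusted p. At edgeR's unadjusted p, 2 were higher with every gene of at least 1 count and 1 with replicate number as a block. At the adjusted p none was called higher by DESeq2 (1 at the unadjusted p) or limma-trend. In bulk RNA, fewer cells that express a gene and less RNA per cell cannot be told apart.

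The differences were small and mostly in 1 direction. At an unadjusted p at or below 0.05, 19 of the 35 genes were lower and 0 higher in edgeR's test, against 11.5% lower and 11.9% higher among all genes. None also reached a log2 FC of 0.58 in either direction, the size used in the study, which 5.83% of all genes did together with the unadjusted p. The log2 FC lay below 0 for 31 genes and above 0 for 4 (DNAJB4, SERPINH1, TRAP1 and HSF1), with a median of -0.19, while the median over all genes tested was -0.01. All 3 ACM values of CPM lay below all 3 UCM values for 22 genes and above them for 1, SERPINH1, whereas 15.1% and 13.9% of all genes were separated in this way.

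**Figure D1:**
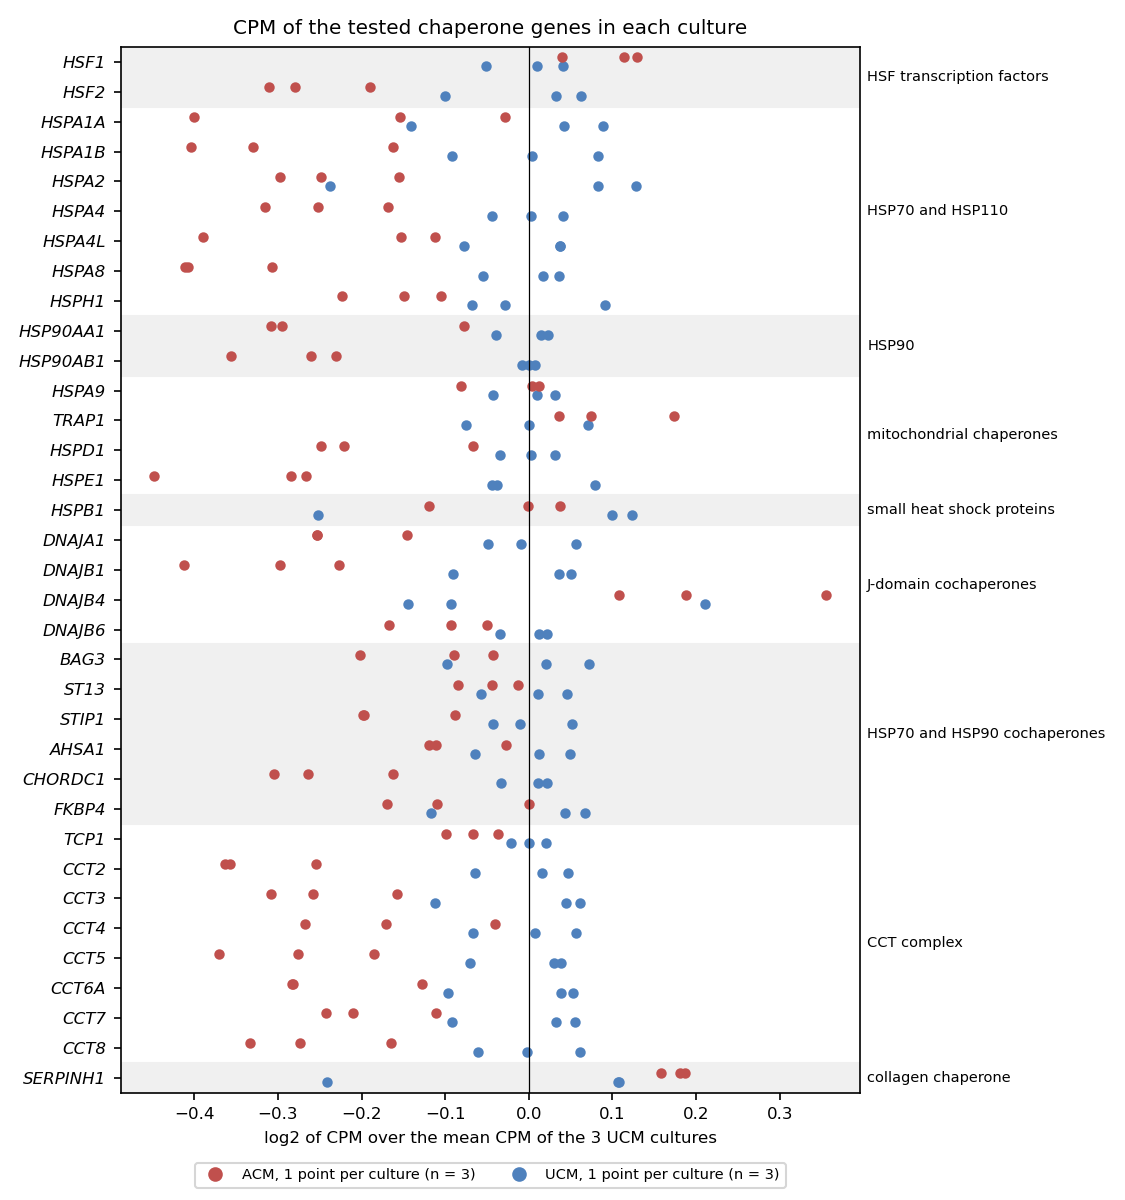
Level of each of the 35 tested genes in each culture, as log2 of its CPM over the mean of the 3 UCM cultures, with 1 point per culture (red, ACM; blue, UCM) and genes grouped by role. For 22 genes the 3 red points lie left of the 3 blue points, and for SERPINH1 they lie right of them.

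Within each group, 1 culture stood nearest to the other group for most of these genes. ACM replicate 3 had the highest of the 3 ACM values for 27 of the 35 genes, and UCM replicate 1 the lowest of the 3 UCM values for 30. These counts were not made over all genes, so a trait of the whole library cannot be told apart from one of these genes. Relative to the UCM mean, the median log2 level of the 35 genes was -0.23 in ACM replicate 1, -0.22 in ACM replicate 2 and -0.13 in ACM replicate 3. In UCM it was -0.06, 0.04 and 0.02. The calls depended on single cultures. Without UCM replicate 1 the number called lower was 10, with CCT3, CCT5, CCT8, HSPA1B and HSPA4 added (adjusted p of 0.0269 to 0.0489, edgeR), and DNAJB4 was called higher with a log2 FC of 0.35 (adjusted p = 0.0282, edgeR). It was 3 without ACM replicate 1 (DNAJB1, HSPA1B and HSPA8) and 2 without ACM replicate 3 (CCT2 and HSPA8). In edgeR it was 0 without ACM replicate 2, UCM replicate 2 or UCM replicate 3, where 13, 13 and 11 genes were lower at the unadjusted p. Calls over all 14683 to 14779 genes tested moved as well. EdgeR called 206, 87 and 190 of them lower without ACM replicate 1, 2 and 3. Without UCM replicate 1, 2 and 3 it called 572, 70 and 62 lower. Shares of all genes at the unadjusted p were not computed for these 6 fits. Over the 6 fits the median log2 FC of the 35 chaperone genes stayed between -0.23 and -0.16. DESeq2 called 9 genes lower with all cultures, against 3.08% of the 13626 genes to which it gave an adjusted p.

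**Figure D2:**
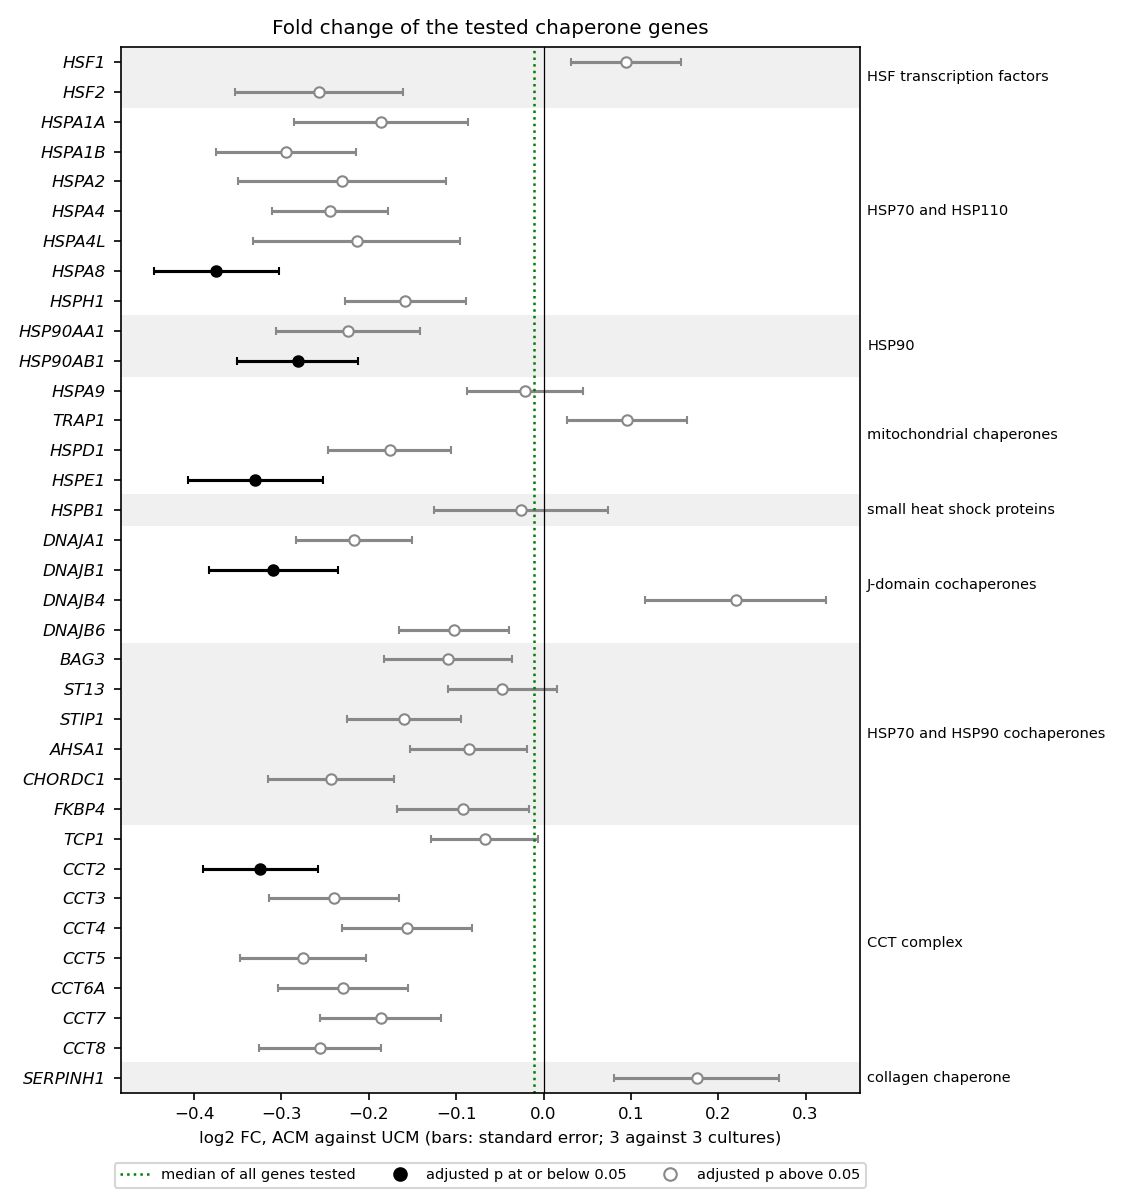
Log2 FC of ACM against UCM for each of the 35 tested genes, with its standard error (SE; 3 against 3 cultures), filled where the adjusted p is at or below 0.05. The 5 filled points lie between -0.37 and -0.28, and the dotted line marks the median of all genes tested, -0.01.

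Letters of the heat shock element stood near a RefSeq start of transcription of several of these genes. RefSeq promoter windows (GRCh38.p14, 250 bases before to 50 after a start of transcription) were matched for 32 of the 37 genes, in 47 windows, with none for HSF1, ST13, CRYAB, CCT6A and FKBP4. The windows were searched for 3 inverted units (GAANNTTCNNGAA or its reverse complement TTCNNGAANNTTC) and for 2 units (GAANNTTC or TTCNNGAA, each its own reverse complement, which also lie within the longer motif). The 3-unit letters were in windows of 8 genes, namely HSPA8, HSP90AA1, HSP90AB1, HSPD1, DNAJA1, DNAJB6, CHORDC1 and SERPINH1, that is in 8 of 47 windows against 172 of 35116 windows of all genes (0.490%). At least 2 units were in 21 windows of 20 genes, against 13.5% of all windows. The stretches below, 5′ to 3′ on the strand of the gene, show in capitals the 3-unit letters of the genes that have them upstream of the start, and the 2-unit letters of HSPA1A, HSPA1B, DNAJB1 and CCT2, whose levels are described below. A further 2-unit match of HSP90AA1 lies within its stretch and is left in lower case. The stretches of HSPA8, HSPD1, SERPINH1 and CCT2 lie upstream of the RefSeq start used but wholly within annotated exons.
HSPA8, start-distal, chr11:123062348-123062372, minus strand: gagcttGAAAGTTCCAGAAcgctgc
HSPA8, start-proximal, chr11:123062173-123062197, minus strand: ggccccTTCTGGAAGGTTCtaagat
HSP90AB1, chr6:44247758-44247863, plus strand: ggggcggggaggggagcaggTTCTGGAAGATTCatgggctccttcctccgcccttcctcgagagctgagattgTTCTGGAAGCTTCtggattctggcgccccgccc
HSP90AA1, chr14:102087100-102087152, minus strand: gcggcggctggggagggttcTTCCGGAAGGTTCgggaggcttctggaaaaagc
HSPD1, chr2:197500062-197500090, minus strand: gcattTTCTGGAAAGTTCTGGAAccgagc
CHORDC1, chr11:90223067-90223129, minus strand: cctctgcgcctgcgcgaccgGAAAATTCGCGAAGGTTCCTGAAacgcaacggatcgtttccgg
DNAJB6, chr7:157336853-157336905, plus strand: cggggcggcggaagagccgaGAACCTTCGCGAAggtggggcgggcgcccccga
SERPINH1, chr11:75562171-75562195, plus strand: ccaactTTCCAGAAGTTTCtcggga
HSPA1A, chr6:31815417-31815464, plus strand: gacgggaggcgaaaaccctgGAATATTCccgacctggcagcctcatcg
HSPA1B, chr6:31827613-31827660, plus strand: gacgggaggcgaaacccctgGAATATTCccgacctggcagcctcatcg
DNAJB1, chr19:14518417-14518494, minus strand: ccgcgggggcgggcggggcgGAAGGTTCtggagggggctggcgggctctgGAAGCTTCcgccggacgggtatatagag
CCT2, chr12:69585794-69585813, plus strand: agcgaaGAAATTTCtagtgt

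These letters are a description of the windows and not evidence of binding. Of the 8 genes with 3 units, 7 had a log2 FC below 0, 2 were called lower (HSPA8 and HSP90AB1), and their median log2 FC was -0.22. The 23 other tested chaperone genes with a window had a median of -0.19, with 3 called lower. Among the remaining genes of the genome, 42 tested genes with 3 units in a window had a median of -0.04, with 1 called lower and 2 higher. The 10602 tested genes with a window but without 3 units had a median of -0.01, with 244 called lower and 377 higher.

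**Figure D3:**
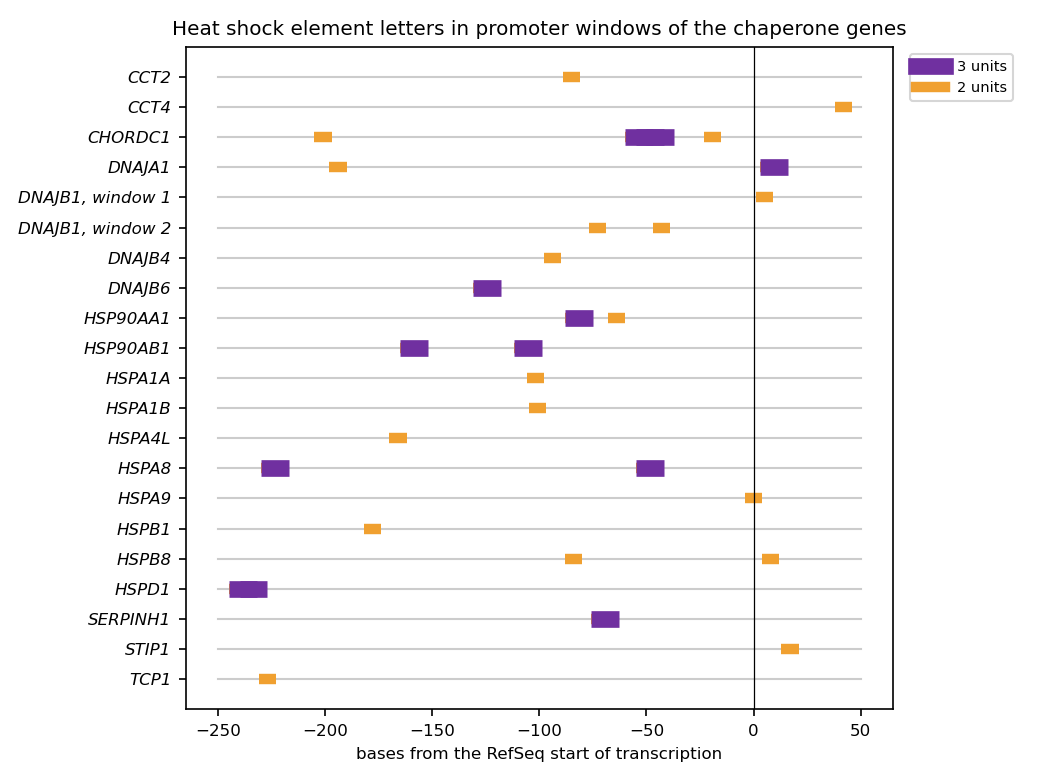
Position of the heat shock element letters, in bases from the RefSeq start of transcription, in each promoter window of the chaperone genes that holds them, with 3 units in purple and 2 units in orange. The 3-unit letters lie upstream of the start in 7 of the 8 genes and just downstream of it in DNAJA1.

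Transcripts of HSF1, the main transcription factor of the heat shock response, were not called different between the media. HSF1 was at 237, 225 and 239 CPM in ACM and at 211, 225 and 220 CPM in UCM, and the groups overlapped. Its log2 FC was 0.09 (SE 0.06, adjusted p = 0.407, edgeR). HSF2, a related factor that can pair with HSF1, was at 21.3, 20.1 and 19.6 CPM in ACM and at 22.7, 24.9 and 25.4 CPM in UCM. All 3 ACM values of HSF2 lay below the UCM values, but with a log2 FC of -0.26 (SE 0.10) its adjusted p was 0.141 (edgeR). Per length, HSF1 was at a mean of 199 TPM in ACM and 191 TPM in UCM, and HSF2 at 13.4 and 17.6 TPM. Activity of these factors is controlled largely at the protein and was not measured here.

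HSPA8 is the constitutive HSP70 that also strips clathrin from vesicles. In edgeR with all cultures, condition only and the default filter, it was the 1 gene of its family called lower. It was at 1555, 1551 and 1666 CPM in ACM and at 1986, 2114 and 2087 CPM in UCM, so that the highest ACM culture lay well below the lowest UCM culture. The fit put it 22.9% lower, with a log2 FC of -0.37 (SE 0.07, adjusted p = 0.0164, edgeR). Its promoter window held the 3-unit letters at 2 separate places, as did that of HSP90AB1 (sequences above). Leaving out ACM replicate 2, UCM replicate 2 or UCM replicate 3 raised its adjusted p to 0.0610, 0.109 and 0.108 (edgeR), while its log2 FC stayed between -0.41 and -0.35 whichever culture was left out.

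The stress-inducible genes HSPA1A and HSPA1B did not pass edgeR's test with all cultures, condition only and its default filter. HSPA1A was at 273, 211 and 250 CPM in ACM and at 252, 287 and 296 CPM in UCM, and the groups overlapped (log2 FC -0.19, SE 0.10, adjusted p = 0.302, edgeR). Its log2 FC was -0.09 without ACM replicate 2. HSPA1B was at 194, 164 and 172 CPM in ACM and at 203, 217 and 229 CPM in UCM, without overlap (log2 FC -0.29, SE 0.08, adjusted p = 0.0597, edgeR). HSPA1B was called lower by DESeq2 (adjusted p = 0.0274) and by edgeR with every gene of at least 1 count (0.0074). EdgeR also called HSPA1B lower with replicate number as a block (0.0304), without ACM replicate 1 (0.0360) or without UCM replicate 1 (0.0269). Their coding sequences share 1922 of 1926 bases (99.79%), so the division of reads between them is uncertain. Summed, the pair was at 466, 374 and 422 CPM in ACM and at 456, 503.7 and 525 CPM in UCM, which overlapped (log2 FC -0.23, SE 0.09, adjusted p = 0.154, edgeR). HSPA6, a strictly heat-induced HSP70 outside the 37 genes, had 0 to 5 counts in a culture and was not tested.

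The HSP110 proteins exchange nucleotide on HSP70 and help to dissolve aggregates. Their genes did not pass edgeR's adjusted test with all cultures, condition only and its default filter. HSPH1 was at 337, 310 and 327 CPM in ACM and at 386, 345 and 355 CPM in UCM, with no overlap (log2 FC -0.16, SE 0.07, adjusted p = 0.200, edgeR). HSPA4 ranged from 320 to 355 CPM in ACM and from 386 to 410 CPM in UCM (log2 FC -0.24, adjusted p = 0.0604, edgeR). It was called lower by DESeq2 (adjusted p = 0.0375) and by edgeR with every gene of at least 1 count (0.0396). EdgeR also called HSPA4 lower with replicate number as a block (0.0180) or without UCM replicate 1 (0.0489). HSPA4L was the least abundant tested gene, at 12.4 to 14.98 CPM in ACM and 15.4 to 16.6 CPM in UCM, and its groups overlapped in TPM. HSPA2, an HSP70 best known from testis, was at 17.2 to 19.0 CPM in ACM and 17.9 to 23.1 CPM in UCM. Of the 7 genes of the HSP70 and HSP110 families edgeR (condition only, default filter) called 1 lower and DESeq2 3. Among all genes these fits called 2.21% and 3.08% lower. At edgeR's unadjusted p, 4 of the 7 were lower, against 11.5% of all genes tested. All 7 had a log2 FC below 0 here and in each alternative fit.

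Both cytosolic HSP90 genes were lower in every ACM culture than in any UCM culture. HSP90AB1, the constitutive form, was at 1549, 1450 and 1583 CPM in ACM and at 1846, 1857 and 1866 CPM in UCM. Its UCM cultures lay close together, and the gene was 17.7% lower (log2 FC -0.28, SE 0.07, adjusted p = 0.0433, edgeR). That call was lost in 5 of 6 fits with 1 culture left out, where the adjusted p was 0.0737, 0.141 and 0.0721 without ACM replicate 1, 2 and 3 and 0.186 and 0.206 without UCM replicate 2 and 3 (edgeR). HSP90AA1, the inducible form, was at 2097, 2078 and 2438 CPM in ACM and at 2505, 2615 and 2600 CPM in UCM. ACM replicate 3 lay close to UCM, and HSP90AA1 did not pass (log2 FC -0.22, SE 0.08, adjusted p = 0.137, edgeR). The ratio of HSP90AA1 to HSP90AB1 in TPM was 1.13 ± 0.071 in ACM and 1.09 ± 0.019 in UCM (mean ± SD, n = 3), overlapping between the groups (exact permutation test, two-sided, p = 0.4).

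Of the 6 cochaperones that act on HSP70 and HSP90, 0 were called by edgeR (condition only, default filter), DESeq2 or limma-trend, although all 6 had a log2 FC below 0. At the unadjusted p, CHORDC1 and STIP1 were lower in edgeR. Of all genes tested, edgeR called 11.5% lower at the unadjusted p and 2.21% at the adjusted p. BAG3, which releases HSP70 clients toward autophagy, was at 120, 130 and 134 CPM in ACM and at 129, 145 and 140 CPM in UCM, with overlap (log2 FC -0.11, SE 0.07, adjusted p = 0.411, edgeR). CHORDC1, an HSP90-binding protein, ranged from 52.3 to 57.7 CPM in ACM and from 63.2 to 65.6 CPM in UCM (log2 FC -0.24, adjusted p = 0.0785, edgeR), but the groups overlapped in TPM, since its effective length differed by up to 1.24 times between cultures. STIP1, which bridges HSP70 and HSP90, ranged from 302 to 325 CPM in ACM and from 336 to 359 CPM in UCM. For AHSA1, which stimulates the ATPase of HSP90, the range was 94.1 to 100.3 CPM in ACM and 97.8 to 105.9 CPM in UCM. FKBP4, an immunophilin of steroid receptor complexes, and ST13, which steadies the bound state of HSP70, overlapped too, with a log2 FC of -0.09 and -0.05.

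Among the 4 J-domain genes DNAJB1 fell, and DNAJB4 had the highest log2 FC of the 35 genes. DNAJB1, the stress-inducible partner of cytosolic HSP70, was at 124, 118 and 109 CPM in ACM and at 136, 150 and 149 CPM in UCM. All ACM cultures lay below all UCM cultures, and it was 19.3% lower (log2 FC -0.31, SE 0.07, adjusted p = 0.0384, edgeR). The adjusted p rose to 0.117 without ACM replicate 2, 0.0961 without ACM replicate 3, 0.175 without UCM replicate 2 and 0.175 without UCM replicate 3 (edgeR). DNAJB4 was at 145 to 173 CPM in ACM and at 122 to 156 CPM in UCM (log2 FC 0.22, SE 0.10, adjusted p = 0.240, edgeR), with UCM replicate 1 above ACM replicates 1 and 2. DNAJA1, a second general partner of HSP70, ranged from 363 to 391 CPM in ACM and from 418 to 450 CPM in UCM (log2 FC -0.22, adjusted p = 0.0848, edgeR). DNAJB6, which holds back aggregates of polyglutamine proteins, ranged from 231 to 250 CPM in ACM and from 253 to 263 CPM in UCM (log2 FC -0.10, adjusted p = 0.369, edgeR).

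Of the 4 mitochondrial chaperones HSPE1 fell, and the other three did not pass the test. HSPE1, the HSP10 lid of the folding chamber, was at 65.7, 58.6 and 66.5 CPM in ACM and at 77.6, 77.9 and 84.5 CPM in UCM. It was 20.5% lower without overlap (log2 FC -0.33, SE 0.08, adjusted p = 0.0363, edgeR). Its adjusted p rose to 0.0620, 0.139 and 0.0572 without ACM replicate 1, 2 and 3 and to 0.122 and 0.192 without UCM replicate 2 and 3 (edgeR). HSPD1, the HSP60 chamber itself, was at 455, 464 and 516 CPM in ACM and at 528, 552 and 541 CPM in UCM, also without overlap (log2 FC -0.18, SE 0.07, adjusted p = 0.166, edgeR).

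HSPD1 and HSPE1 are read in opposite directions, and HSPE1 lies within the GENCODE span of HSPD1. Whether the counting used strand is not given in the sources used here, so the division of reads where their exons overlap is uncertain. The RefSeq start of HSPD1 whose window holds the heat shock element letters lies 299 bases from the GENCODE start of HSPE1, and the letters lie 54 bases from it. Another RefSeq start of HSPD1 and the RefSeq start of HSPE1 lie elsewhere and would give other distances. The ratio of HSPE1 to HSPD1 in TPM was 0.946 ± 0.080 in ACM and 1.06 ± 0.047 in UCM (mean ± SD, n = 3), with overlap (exact permutation test, two-sided, p = 0.2). Read-through transcripts annotated as HSPE1-MOB4 had 0 to 39 counts in a culture, 142 in all against 8180 for HSPE1. HSPA9, the mitochondrial HSP70 that pulls proteins in through the inner membrane, was at 782 to 834 CPM in ACM and 803 to 845 CPM in UCM (log2 FC -0.02, SE 0.07, adjusted p = 0.889, edgeR). TRAP1, the mitochondrial HSP90, was at 226 to 249 CPM in ACM and 210 to 232 CPM in UCM (log2 FC 0.10, SE 0.07, adjusted p = 0.447, edgeR). As a ratio in TPM, HSPA9 over HSPA8 was 0.420, 0.454 and 0.430 in ACM and 0.337, 0.341 and 0.344 in the UCM cultures. All ACM values of this ratio lay above the UCM values, which gives p = 0.1, the smallest an exact permutation test of 3 against 3 can reach (two-sided; 0.24 after adjustment over 12 ratios).

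HSPB1, the small heat shock protein that holds unfolded proteins and actin, was abundant and not called different. It was at 378, 339 and 368 CPM in ACM and at 309, 401 and 395 CPM in UCM (log2 FC -0.03, SE 0.10, adjusted p = 0.909, edgeR). UCM replicate 1 stood below all other cultures, and the log2 FC without it was -0.13. SERPINH1, which escorts procollagen through the ER, was at 1082, 1099 and 1104 CPM in ACM and at 821, 1044 and 1045 CPM in UCM. Its groups did not overlap, but UCM replicate 1 was again far below its fellows, and the test was not passed (log2 FC 0.18, SE 0.09, adjusted p = 0.302, edgeR). Without UCM replicate 1 its log2 FC was 0.08.

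All 8 subunits of CCT, the chaperonin that folds actin and tubulin, had a log2 FC below 0 in edgeR's fit, with a median of -0.23. TCP1 was above 0 in 3 of 16 alternative fits, those that use TPM or effective lengths. CCT2 fell, 6 subunits were lower at the unadjusted p, and 7 did not overlap between the groups. Of all genes tested, 11.5% were lower at this p and 15.1% had all 3 ACM values below all 3 UCM values. CCT2 was at 232, 231 and 250 CPM in ACM and at 285, 308 and 301 CPM in UCM, clearly apart. It was 20.1% lower (log2 FC -0.32, SE 0.07, adjusted p = 0.0214, edgeR). Without ACM replicate 1 or 2 its adjusted p was 0.0555 and 0.0824, and without UCM replicate 2 or 3 it was 0.125 and 0.121 (edgeR). CCT5 (log2 FC -0.28, adjusted p = 0.0533), CCT8 (-0.26, 0.0604), CCT3 (-0.24, 0.0881) and CCT6A (-0.23, 0.10) came next in edgeR's test, with ACM cultures below UCM cultures in each. DESeq2 also called CCT5 and CCT8 lower (adjusted p of 0.0174 and 0.0401). CCT7 (-0.19), CCT4 (-0.16) and TCP1 (-0.07) had the smallest differences, and CCT4 alone overlapped between the groups in CPM.

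The complex holds its 8 subunits in equal number, while their transcripts were unequal in both media. In UCM, CCT5 took 21.1% ± 0.20 of the summed CCT TPM and CCT4 5.93% ± 0.12 (mean ± SD, n = 3). The share of TCP1 was 20.1%, 20.1% and 19.4% in ACM and 17.6%, 17.00% and 16.6% in UCM. CCT2 made up 8.505%, 8.32% and 8.30% in ACM and 9.20%, 9.28% and 9.14% in UCM, so these groups did not overlap in either direction. CCT5 and CCT6A shares were also lower in ACM without overlap, with differences of -0.952 and -0.542 percentage points. These 4 shares had p = 0.1 in the exact permutation test, the smallest possible, and 0.24 after adjustment. TCP1's effective length differed by up to 1.10 times between cultures, and with the mean effective length its share was 1.86 instead of 2.86 percentage points higher in ACM. With the mean length, CCT6A's difference shrank to -0.142 percentage points.

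**Figure D4:**
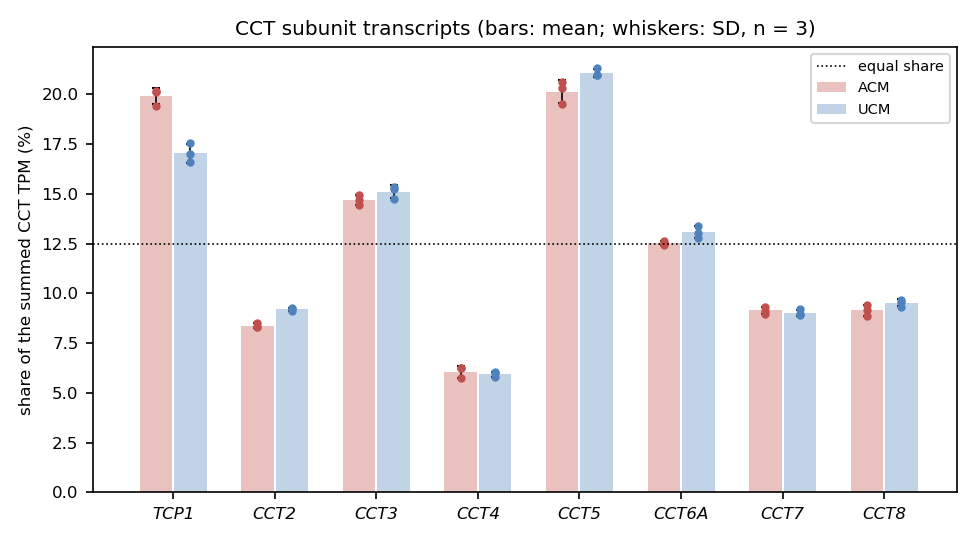
Share of each CCT subunit in the summed TPM of the 8 subunits, in percent, for ACM (red) and UCM (blue), with bars at the mean, whiskers for the SD (n = 3) and 1 point per culture. TCP1 was higher (19.9% against 17.05%) and CCT2 lower (8.38% against 9.20%) in ACM, and the dotted line marks an equal share.

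On the scale of TPM, which allows levels of different genes to be compared, the 37 genes together made up 1.12%, 1.07% and 1.21% of all TPM in ACM and 1.24%, 1.30% and 1.31% in the UCM cultures. Every ACM culture was below every UCM culture. HSPA8 was the highest of them, with 1109 to 1536 TPM over the 6 cultures, followed by HSP90AA1, HSP90AB1 and HSPB1 (means of 1173, 1059 and 1025 TPM) and SERPINH1 (849 TPM). Neighbors in the order of these 5 overlapped over the 6 cultures. HSPB1 was above HSP90AB1 in ACM (means of 1010 and 950 TPM) and below it in UCM (1040 and 1168 TPM). A gap separated them from CCT5, TCP1 and HSPA9 (means of 583, 518 and 511 TPM), which again overlapped with each other. From CCT3 (421 TPM) down to FKBP4 (67.0 TPM), 24 genes followed in an unbroken run in which each overlapped with its neighbor. The inducible genes HSPA1A (176 TPM), HSPA1B (125 TPM) and DNAJB1 (96.8 TPM) sat in this run. HSF2 (15.5 TPM) and HSPA2 (12.7 TPM) lay far below it, and HSPA4L (5.03 TPM) below these. By summed TPM, the HSP70 and HSP110 genes went from 2160 ± 31 in UCM to 1702 ± 97 in ACM, HSP90 from 2437 ± 13 to 2027 ± 175 and CCT from 3029 ± 80 to 2618 ± 186 (mean ± SD, n = 3), and in each family all ACM cultures lay below all UCM cultures.

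**Figure D5:**
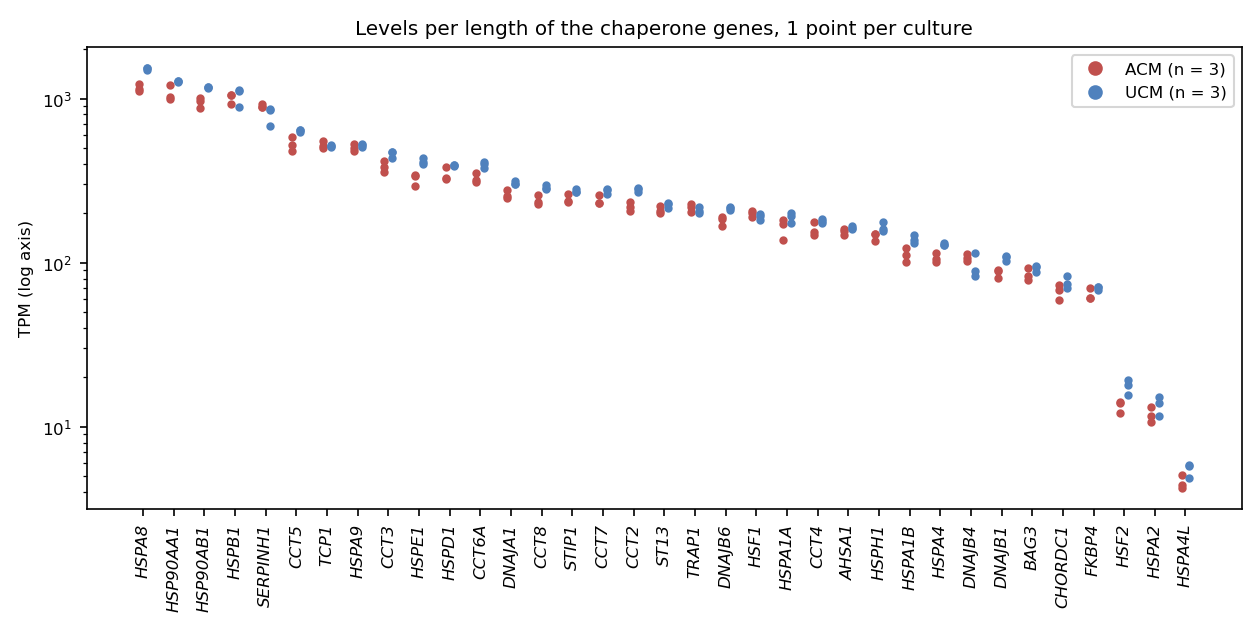
TPM of the 35 tested chaperone genes in each of the 6 cultures on a log axis, ordered by their mean, with ACM in red and UCM in blue. HSPA8 leads with 1109 to 1536 TPM, and HSF2, HSPA2 and HSPA4L stand apart below FKBP4 at the right.

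A wider list of chaperone genes gave calls in both directions. Of 67 further chaperones, cochaperones and mitochondrial proteases matched, 62 were tested, 4 were called lower and 2 higher by edgeR, with a median log2 FC of -0.12. The shares of all genes tested were 2.21% called lower and 3.35% higher. PDCL3, which assists CCT, was at 14.8, 14.1 and 17.8 CPM in ACM and at 23.7, 24.0 and 23.7 CPM in UCM, 34.6% lower (log2 FC -0.61, SE 0.11, adjusted p = 0.0141, edgeR). VBP1, a subunit of prefoldin, which hands actin and tubulin to CCT, was also called lower (log2 FC -0.32, adjusted p = 0.0339). DNAJC8, a J-domain protein of the spliceosome (-0.29, 0.0314), and CACYBP (-0.28, 0.0488) completed the 4. All 10 prefoldin and CCT cofactor genes had a log2 FC below 0 in edgeR's fit, although PFDN5 turned above 0 in 7 and PFDN6 in 1 of 16 alternatives. Without UCM replicate 2 or UCM replicate 3, 0 of the 62 genes were called lower by edgeR, with 8 and 9 lower at the unadjusted p. Over all genes, these fits called 70 of 14779 and 62 of 14775 lower at the adjusted p. Their shares of all genes at the unadjusted p were not computed.

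The 2 genes called higher were LONP1 and HSPA13. LONP1, a protease of the mitochondrial matrix, was at 315, 327 and 307 CPM in ACM and at 218, 224 and 238 CPM in UCM, with no overlap (log2 FC 0.48, SE 0.07, adjusted p = 0.0040, edgeR), and was called in all 16 alternatives. HSPA13, a microsomal HSP70 relative, was at 51.6, 59.4 and 52.3 CPM in ACM and at 44.3, 40.6 and 42.9 CPM in UCM, again apart. It had a log2 FC of 0.35 (SE 0.08, adjusted p = 0.0382, edgeR). Its adjusted p was 0.143 without ACM replicate 2, 0.0746 without ACM replicate 3, 0.179 without UCM replicate 2 and 0.123 without UCM replicate 3. FKBP5, a partner of HSP90 and a glucocorticoid target, was low at 1.90 to 2.88 CPM in ACM and 1.99 to 2.42 CPM in UCM (log2 FC 0.02, SE 0.28, adjusted p = 0.970, edgeR).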

How the data were processed

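RNA of 3 ACM and 3 UCM cultures of BT-549 cells was sequenced by the authors as polyA-enriched paired reads. Per the labels and the study's methods, Trim Galore, STAR and RSEM were used with the GRCh38 build, in versions not given in the sources used here. The authors deposited for each culture RSEM's expected count per gene, which divides reads that match more than 1 gene and carries no scaling for depth. They also deposited TPM values, which are scaled by each gene's effective length in that culture. A further table holds the authors' fold changes and p-values for ACM against UCM and was not used here.

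Symbols and positions came from GENCODE 44, which held 61547 of the 63140 identifiers with their version. After rounding the expected counts, the 14451 genes that passed edgeR's filterByExpr were compared in R 4.3.3 with edgeR 4.0.16 (TMM normalization, robust quasi-likelihood fit, condition only), with Benjamini-Hochberg adjustment over all of them and a threshold of 0.05. CPM values are scaled with TMM. The coefficient of biological variation was 0.115. Ratios of TPM were compared by two-sided exact permutation tests over the cultures. Alternatives were DESeq2 1.42.0, limma-trend (limma 3.58.1) on log2 of TPM with 1 or 0.1 added, other size factors and filters, effective lengths as offsets, the replicate block, fits without mitochondrially encoded genes, HSPA1A and HSPA1B summed, and each culture left out.

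The chaperone genes and the other lists were chosen with earlier results of these data known. Values per culture are given for each of the 37 genes at an adjusted p at or below 0.05 and for HSF1, HSF2, HSPA1A, HSPA1B, HSPA8, HSPH1, HSP90AA1, HSP90AB1, HSPD1, HSPE1, HSPB1, DNAJB1, BAG3 and SERPINH1, and the others are given by range. Of each other list, up to 5 genes with the lowest adjusted p at or below 0.05 are named, with HSPA5, FKBP5 and HSPA6 in addition. Replicate numbers were not taken as pairs in the main fit, and whether same-numbered cultures belong together was not settled. Pseudogenes named after the 37 genes numbered 124, of which 103 had no count, and held 274 counts in all against 1767355 for the genes. Floors cover counting error only, while each SE comes from edgeR's fit and includes the spread between cultures.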

Additional observations from a re-analysis of the deposited data

How the results depend on the processing

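The number of chaperone genes called lower was 9 with DESeq2, 10 with all genes of at least 1 count, and 4 or 5 with RLE size factors, the stricter filter, limma-trend, effective lengths, no mitochondrially encoded genes or the summed HSPA1 pair. With each culture left out it ranged from 0 to 10, and the number called higher from 0 to 1. HSPA8 was called in 13, CCT2 in 12, HSPE1 in 11, HSP90AB1 in 10 and DNAJB1 in 9 of 16 alternatives, and each kept a log2 FC below 0 in all 16.

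Over all genes, 679 were called lower and 1045 higher with at least 1 count, 132 and 230 with limma-trend on TPM plus 1, and 138 and 234 with 0.1 added. With a culture left out these counts ranged from 62 to 572 lower and from 125 to 738 higher. The median log2 FC of all genes was -0.00056 with DESeq2, -0.0016 with RLE, 0.0022 with at least 10 counts per library, -0.028 and -0.033 with limma-trend (1 and 0.1 added), -0.0018 with effective lengths, and -0.018 to 0.0082 with a culture left out.

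Of the other chaperones, 7 were called lower with at least 1 count, 2 with effective lengths and 1 with either limma-trend fit, which also called 1 higher. With a culture left out, 0 to 6 were lower and 1 to 2 higher, and their median ranged from -0.14 to -0.077. Of the ER genes, 1 was called higher with at least 1 count and 1 with effective lengths, and their median ranged from 0.038 to 0.17 with a culture left out. With the mean effective length, ACM minus UCM shares of CCT were 1.86 for TCP1, -0.676 for CCT2 and -0.142 for CCT6A, in percentage points.

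Deviations of same-numbered cultures had correlations of 0.318, 0.035 and 0.177. Those of differently numbered cultures ranged from -0.314 to 0.196. These values do not settle whether the numbers are pairs, and the main fit did not treat them as pairs. With the replicate block, 14 chaperone genes were called lower (among them HSPA1B, HSPA4, HSP90AA1, DNAJA1 and CHORDC1, the last at an adjusted p of 0.0490), 703 of all genes lower and 909 higher, 8 other chaperones lower and 4 ER genes higher, HSPA5 among them (adjusted p = 0.0338). With 3 wells a group and small differences, the adjusted p depended on single wells, and the cause of these changes was not tested.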

Other observations

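Chaperones of the ER, which are induced by ER stress rather than by HSF1, were mostly not called different between the media, and their difference from the cytosolic genes was not tested. Of 16 ER genes 0 were called higher or lower by edgeR (condition only, default filter), DESeq2 or limma-trend, and their median log2 FC was 0.10. At edgeR's unadjusted p, 5 were higher and 0 lower, against 11.9% and 11.5% of all genes tested. HSPA5, the HSP70 of the ER, was at 1426, 1644 and 1399 CPM in ACM and at 1010, 1306 and 1327 CPM in UCM, without overlap (log2 FC 0.30, standard error 0.11, adjusted p = 0.152, edgeR). It was called higher by edgeR with every gene of at least 1 count (adjusted p = 0.0037), and its log2 FC was 0.19 to 0.37 with a culture left out. DNAJB9, a J-domain protein of the ER chosen after its values were seen, was called higher by DESeq2 with effective lengths (log2 FC 0.66, adjusted p = 0.0204). UCM replicate 1 was the lowest culture for HSPA5, as it was for SERPINH1 and HSPB1. Of 7 tested genes on a list of other heat-induced genes, 0 were called by edgeR, DESeq2 or limma-trend, and the median was 0.01. At edgeR's unadjusted p, 1 was lower and 0 higher, against 11.5% and 11.9% of all genes tested. At the adjusted p, edgeR called 2.21% of all genes lower and 3.35% higher, so few calls are to be had from lists this short.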
